A study of Komagataella phaffii with 6 samples.

Results

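PEP4 and PRB1, the genes of the vacuolar proteinases A and B, were followed in the methylotrophic yeast Komagataella phaffii kept on methanol without and with a nitrogen source. They are 2 of the 5040 genes in the deposited count table and were taken by locus tag, PAS_chr3_1087 for PEP4 and PAS_chr1-1_0379 for PRB1. The pairing of names and tags comes from outside the table and the RefSeq gene list, which both give locus tags alone, and it was not checked against sequence. The rule takes the genes by tag and uses no measured value.

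All cells were of strain X-33, a prototrophic strain much used for protein production, with a wild-type genotype. They were first grown for 40 h in 100 ml of BMG, a medium whose carbon source was glycerol, then collected and moved for 18 h into 100 ml of methanol medium. The group without nitrogen was placed in BMM-N, which held no nitrogen source (3 libraries). The group with nitrogen was placed in BMM+N, which held ammonium sulfate (3 libraries). The comparison asks which transcripts differ after 18 h when the nitrogen source is left out, and it therefore contrasts 2 methanol cultures and not starved cells with cells before the transfer. The labels do not say whether the numbered replicates were separate cultures, so the spread between libraries that the p-values rest on may be technical.

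The vacuole is the degradative compartment of yeast. In Saccharomyces cerevisiae, protein and organelles delivered there by autophagy during nitrogen starvation are broken down by vacuolar proteinases, and the released amino acids are reused. Proteinase A, the product of PEP4, is an aspartyl protease made as an inactive precursor. It activates itself and then the precursors of other vacuolar hydrolases, among them proteinase B, the subtilisin-like serine protease encoded by PRB1, and carboxypeptidase Y. Proteinase B takes part in the same activation cascade. In K. phaffii both genes are best known as targets for deletion in production strains, because the enzymes released from broken cells degrade secreted proteins. The counts below are of messenger RNA, and neither precursor processing nor enzyme activity was measured.

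The libraries held 127303 to 435003 counts on genes. They were made with a QuantSeq forward kit, which reads a fragment near the 3′ end of each polyadenylated transcript, from 300 ng of total RNA. The smallest library, replicate 3 without nitrogen, touches the values of both genes and is given separately wherever it decides one. Counts are relative to the library, so a lower share of the counts and less RNA per cell cannot be told apart.

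PEP4 lies on the minus strand of chromosome 3 at positions 2103131 to 2104363 of assembly ASM2700v1, as a single coding exon of 1233 bp that would encode 410 residues. PRB1 lies on the minus strand of chromosome 1 at positions 1264858 to 1266752. Its coding sequence is in 2 exons, a first of 312 bp at 1266441 to 1266752 and a second of 1470 bp at 1264858 to 1266327, which are separated by an intron of 113 bp. Together these make 1782 bp and 593 residues. More than 1 coding exon was listed for 539 of the 5040 genes, or 10.7%, so PRB1 belongs to the minority with a split coding sequence.

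Neither coding region overlapped that of a neighbour. Downstream of PEP4, 314 bp beyond its stop codon, lay a gene in the same direction with 363 counts over the 6 libraries, 0.368 times the 987 counts of PEP4. Upstream, 267 bp away and again in the same direction, lay a gene with 77 counts. PRB1 was placed differently: the next coding region downstream, 523 bp away, pointed toward it and held 959 counts, 15.2 times the 63 counts of PRB1. The upstream neighbour, transcribed away from PRB1 at a distance of 2131 bp, had 34 counts. The counts were made over coding sequence, so fragments that lie wholly in the 3′ untranslated region of either gene would not be in them, and the part this plays in the low PRB1 count was not tested.

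**Figure D1:**
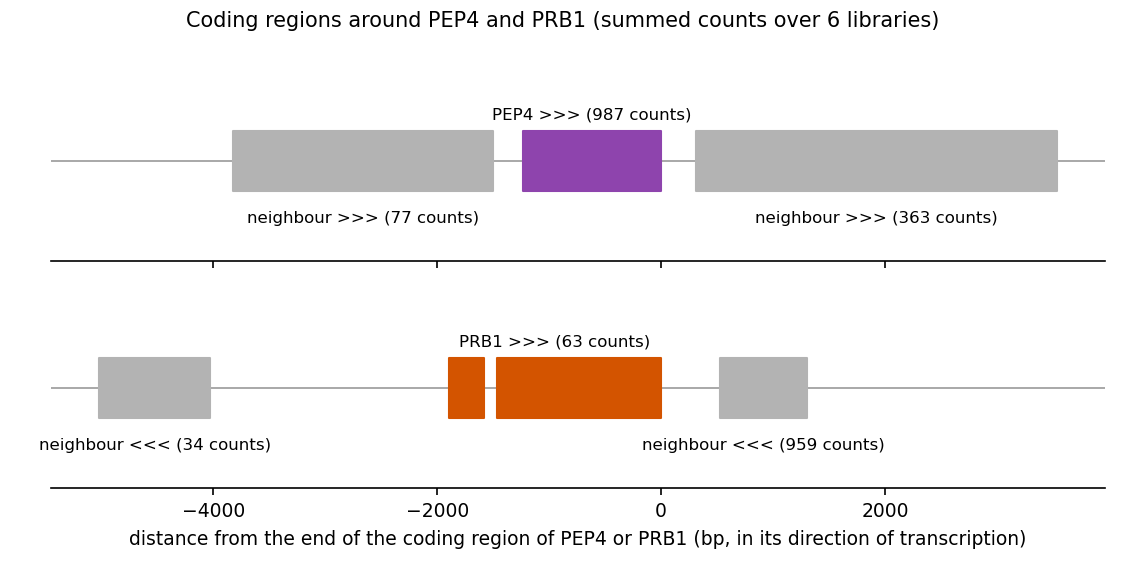
Coding regions around PEP4 (top) and PRB1 (bottom), drawn to scale by distance in bp from the end of each gene's coding region, with transcription of PEP4 and PRB1 running to the right. Coloured boxes are coding exons, grey boxes are the spans of the neighbouring coding regions, arrows give direction, and the numbers are counts summed over the 6 libraries; the convergent neighbour of PRB1 had 959 counts against 63 for PRB1.

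Transcripts of PEP4 were abundant in both media. Summed over the 6 libraries, its 987 counts ranked 347 of 5040 genes, and 93.1% of the genes had fewer. PRB1 was a low-count gene, with 63 counts in all and rank 3197, and 36.3% of the genes had fewer. Per length, PEP4 was at 386.9 ± 46.2 CPM (the usual count unit, here relative to the TMM-scaled library size) per kb of coding sequence without nitrogen and 438.2 ± 31.9 with nitrogen (SD, n = 3 each). PRB1 was at 24.0 ± 13.6 CPM per kb without nitrogen and 18.4 ± 6.27 with nitrogen (SD, n = 3 each). On this scale PEP4 ranked 445 and PRB1 3581 of 5040. A 3′ end library yields about a fragment per transcript whatever its length, so the division by length is not needed here. Only fragments over coding sequence were counted, and the share of fragments this leaves out may differ between genes. Neither scale is therefore an exact comparison of transcript levels between PEP4 and PRB1. The values per kb are given only as a further scale, and in CPM the order of the genes was the same.

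For PEP4, the libraries without nitrogen held 147, 210 and 53 counts in replicates 1, 2 and 3, against 255, 166 and 156 counts with nitrogen. As CPM these were 500.3, 519 and 412 without nitrogen, and 567, 559 and 495 with nitrogen. The groups overlapped: replicates 1 and 2 without nitrogen lay above the lowest library with nitrogen, its replicate 3, and 1 library, replicate 3 without nitrogen, lay below the whole other group. That library was the smallest, and its 53 counts give an unscaled level of 416 CPM with an exact 95% Clopper-Pearson interval from 312 to 545 CPM, which covers counting error only. That interval takes in the unscaled level of replicate 3 with nitrogen, 486 CPM, but not those of replicates 2 and 1, 549 and 586 CPM.

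PEP4 averaged 477 ± 56.9 CPM without nitrogen and 540.3 ± 39.3 CPM with nitrogen (SD, n = 3 each). Its log2 fold change, without over with nitrogen, was -0.15 ± 0.15 (SE), a ratio of 0.899, and it did not pass edgeR's quasi-likelihood test (adjusted p = 0.708 with Benjamini-Hochberg adjustment over 3330 tested genes; unadjusted p = 0.306). The 95% interval ran from -0.45 to 0.14 on the log2 scale, or from 0.734 to 1.10 times the level with nitrogen. The interval rests on a spread that edgeR took almost wholly from the trend over all genes. As an unscaled share of all gene counts, PEP4 took 0.0477% ± 0.00575 without nitrogen and 0.0540% ± 0.00506 with nitrogen (SD, n = 3 each; exact permutation p = 0.2, two-sided, where 3 libraries against 3 cannot go below 0.1).

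For PRB1, the libraries without nitrogen held 7, 14 and 9 counts in replicates 1, 2 and 3, against 9, 12 and 12 counts with nitrogen. As CPM these were 23.8, 34.6 and 70.0 without nitrogen, and 20.0, 40.4 and 38.1 with nitrogen. The groups overlapped here too, since replicates 1 and 2 without nitrogen lay within the range of the other group. Replicate 3 without nitrogen was the highest library, and it was the lowest for PEP4. Its 9 counts gave an unscaled level of 70.7 CPM with an exact 95% interval from 32.3 to 134 CPM. That interval takes in the unscaled levels of replicates 2 and 3 with nitrogen, 39.7 and 37.4 CPM, but not that of replicate 1, 20.7 CPM.

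PRB1 averaged 42.8 ± 24.2 CPM without nitrogen and 32.8 ± 11.2 CPM with nitrogen (SD, n = 3 each). The log2 fold change was 0.24 ± 0.47 (SE), a ratio of 1.18, and it did not pass (edgeR adjusted p = 0.877, unadjusted p = 0.602). The 95% interval was wide, from -0.67 to 1.16, or from 0.628 to 2.23 times the level with nitrogen, so both a fall and a rise of some size were within it. As for PEP4, the interval rests on a spread that edgeR took almost wholly from the trend over all genes. The direction rested on single libraries: without replicate 3 without nitrogen the log2 fold change was -0.09, and without replicate 1 with nitrogen, the library with the lowest PRB1 level, it was -0.06. As an unscaled share, PRB1 took 0.00431% ± 0.00247 of gene counts without nitrogen and 0.00326% ± 0.00104 with nitrogen (SD, n = 3 each; exact permutation p = 0.7, two-sided).

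**Figure D2:**
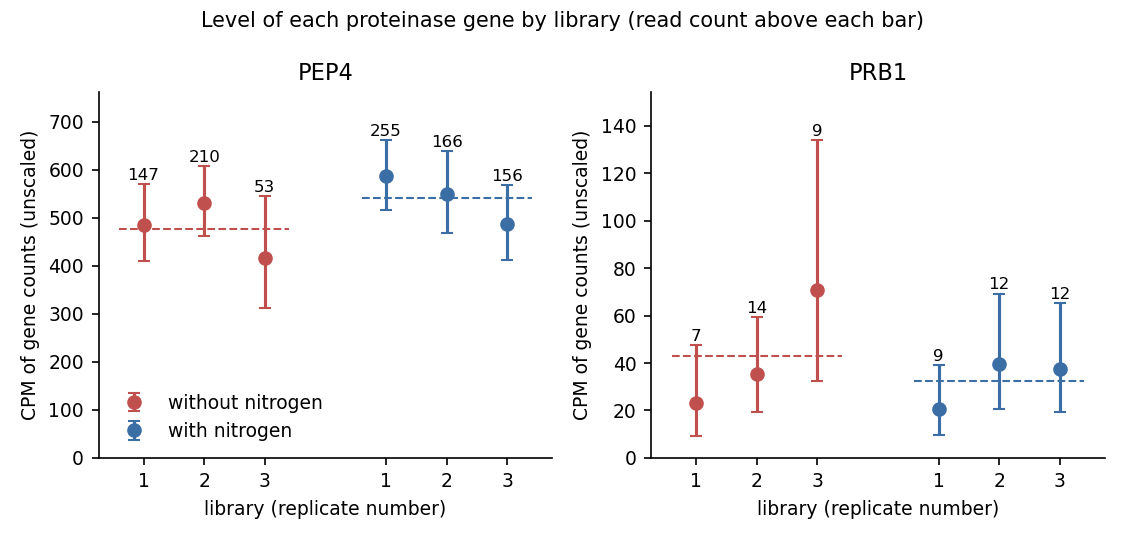
Level of PEP4 (left) and PRB1 (right) in each library, in CPM of gene counts without further scaling, on axes that start at 0. Points are libraries, error bars are exact 95% Clopper-Pearson intervals for counting error, dashed lines are group means and the numbers are read counts; for both genes the libraries without nitrogen (red) overlap those with nitrogen (blue), and the 9 PRB1 counts of replicate 3 without nitrogen carry the widest bar.

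Pooling the libraries of a group gives the same picture for counting error alone. PEP4 had 410 counts of 825943 without nitrogen and 577 of 1058313 with nitrogen, a ratio of shares of 0.910 with an exact Poisson interval from 0.800 to 1.04. PRB1 had 30 counts without nitrogen and 33 with nitrogen, a ratio of 1.16 with an interval from 0.686 to 1.97. These intervals leave out the spread between libraries and compare the libraries rather than the media. For PRB1 the interval was broad from counting error alone.

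Of the 3330 tested genes, 211, or 6.34%, passed at an adjusted p under 0.05, with 122 higher (3.66%) and 89 lower (2.67%) without nitrogen. Of the 2 proteinase genes, 0 passed with edgeR, and 0 had an unadjusted p under 0.05, against 547 of all tested genes. With DESeq2 and with limma-voom the counts were also 0 adjusted and 0 unadjusted. DESeq2 gave PRB1 no adjusted p (DESeq2 unadjusted p = 0.631), so its adjusted count covers PEP4 alone. The edgeR count of 0 of 2 is close to the background share of 6.34%. In size, 65.6% of tested genes had a larger absolute log2 fold change than PEP4 and 49.7% a larger one than PRB1, and the median over all tested genes was 0.24. The fold changes of both genes therefore lay well inside the body of the distribution. The groups did not overlap for 20.2% of tested genes and overlapped for both proteinase genes.

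**Figure D3:**
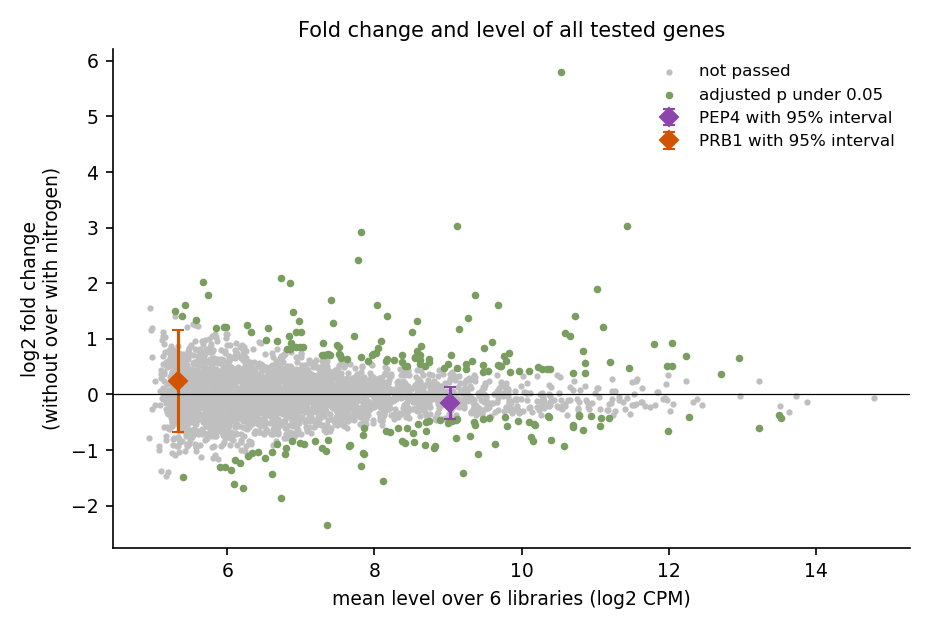
Log2 fold change without over with nitrogen (vertical) against mean level in log2 CPM (horizontal) for the 3330 tested genes, with genes that passed at an adjusted p under 0.05 in green. Diamonds with 95% intervals mark PEP4, at -0.15 near the abundant end, and PRB1, at 0.24 near the low end; both intervals include 0.

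The test was not equally sharp for the proteinase genes. The SE of PEP4 was smaller than that of 89.5% of tested genes, whereas 4.98% of tested genes had a larger SE than PRB1. Tested genes with a total count within 25% of a member show which differences passed at a like count. Among 178 such genes near PEP4 (742 to 1231 counts), 29 passed (16.3%), 14 of them higher and 15 lower, and the smallest absolute log2 fold change that passed was 0.45. Among 432 near PRB1 (48 to 78 counts), 5 passed (1.16%), 4 higher and 1 lower, and the smallest that passed was 1.35. The PRB1 fold change of 0.24 was far below that last value. The smallest values come from genes that passed in these same libraries, only 5 of them near PRB1, so they are not a limit of detection.

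Within a library, the ratio of PEP4 counts to PRB1 counts needs no scaling between libraries. It is a ratio of counts over coding sequence, so it need not equal the ratio of the transcripts. The libraries without nitrogen held 21.0, 15.0 and 5.89 PEP4 counts for each PRB1 count in replicates 1, 2 and 3, against 28.3, 13.8 and 13.0 with nitrogen. The log2 ratio of PRB1 to PEP4 averaged -3.62 ± 0.95 without nitrogen and -4.10 ± 0.63 with nitrogen (SD, n = 3 each). The difference of 0.49 was smaller than the SD of either group (exact permutation p = 0.6, two-sided). It was carried by replicate 3 without nitrogen, and without that library the difference was -0.04. Over the 6 libraries, the log2 levels of the genes, each centred on its own mean, differed by a root mean square of 0.613. Of the 2632 other tested genes with a mean of at least 50 CPM, 95.5% were nearer to PEP4 in this measure than PRB1 was. PRB1 itself lay below that 50 CPM limit, so its distance was ranked against those of genes with more counts and less counting noise. Seen from PRB1, 65.6% of 2633 such genes were nearer than PEP4. Much of the distance between PEP4 and PRB1 came from replicate 3 without nitrogen, where the centred value was -0.29 for PEP4 and 0.88 for PRB1. Replicate 1 with nitrogen also added to it, with 0.16 for PEP4 and -0.66 for PRB1. Both PRB1 values rest on 9 counts.

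By the same measure, the gene whose pattern was most like PEP4 over the 6 libraries was PAS_chr1-4_0274, at a root mean square difference of 0.0423, against a median of 0.309 over the genes compared. It was at 240.0 ± 26.6 CPM without nitrogen and 274 ± 26.1 CPM with nitrogen (SD, n = 3 each). Its log2 fold change was -0.17 and did not pass (edgeR adjusted p = 0.762). The gene most like PRB1 was PAS_chr2-2_0226, at 0.154 against a median of 0.553. It was at 77.2 ± 29.3 CPM without nitrogen and 60.5 ± 14.6 CPM with nitrogen, a log2 fold change of 0.28 (edgeR adjusted p = 0.800). Both genes were picked for the smallest distance in these same libraries. Fold changes close to those of PEP4 and PRB1, and distances far below the medians, therefore follow from the choice. The sources used here name no function for either gene, and the likeness is a description over 6 libraries.

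None of the 3 neighbours that could be tested passed either. For the gene downstream of PEP4 the log2 fold change was 0.08 ± 0.21 (SE; adjusted p = 0.920 by edgeR), and for the one upstream it was 0.02 ± 0.43 (adjusted p = 0.985). The convergent neighbour of PRB1 was at 492 ± 90.5 CPM without nitrogen and 546 ± 62.5 CPM with nitrogen (SD, n = 3 each). Its log2 fold change was -0.18 ± 0.15 (SE; adjusted p = 0.652 by edgeR). The low-count gene upstream of PRB1 did not pass the filter on low counts.

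Over every other setting tried, neither gene passed. For PEP4 the log2 fold change lay below 0 in all 16 alternatives, from -0.22 to -0.07, and the adjusted p ran from 0.585 to 0.913. For PRB1 it ran from -0.09 to 0.52 over the 14 alternatives that gave a value, with adjusted p from 0.748 to 0.986. DESeq2 gave PRB1 no adjusted p.

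**Figure D4:**
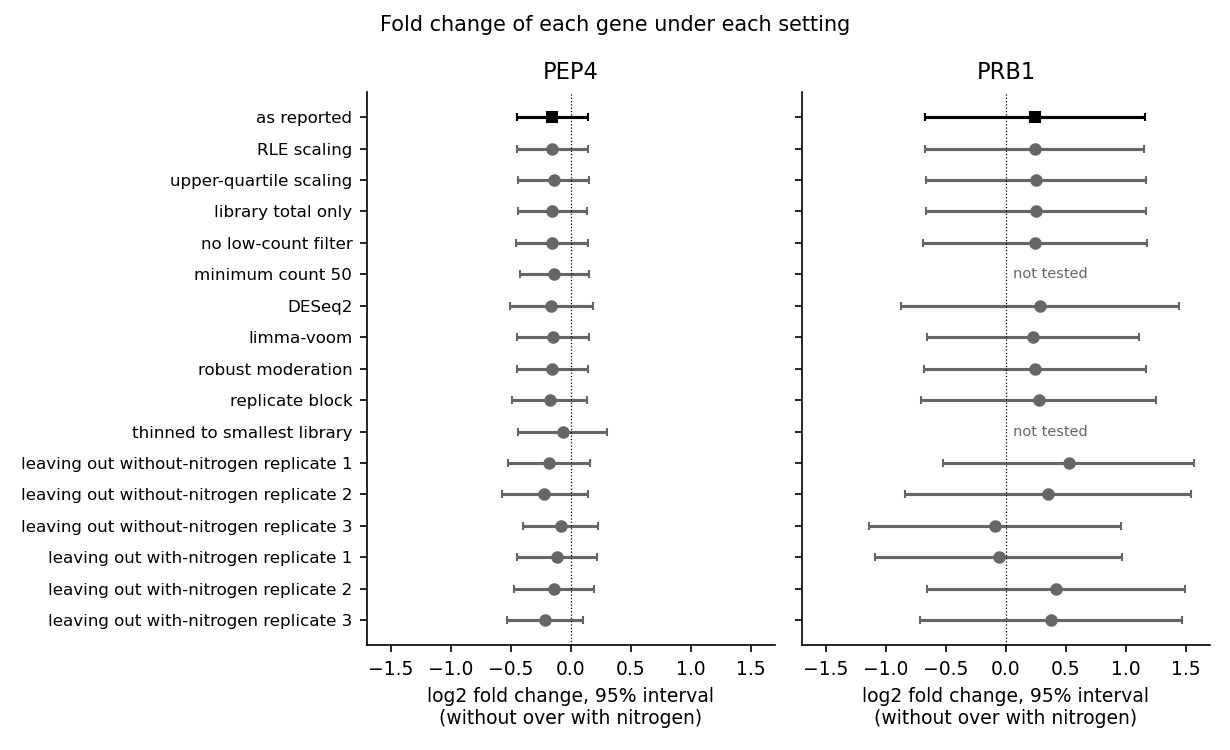
Log2 fold change without over with nitrogen, with its 95% interval, for PEP4 (left) and PRB1 (right) under each setting, including each library left out in turn. The PEP4 values lie between -0.22 and -0.07 and the PRB1 values between -0.09 and 0.52, and every interval includes 0; PRB1 has no value where a stricter filter or thinning removed it.

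Other genes of vacuolar proteolysis could not be placed beside the proteinases. A list of 80 symbols in 6 groups (vacuolar hydrolases, proteinase inhibitors, autophagy, vacuolar sorting and fusion, the vacuolar ATPase, and secretory proteases) had 0 matches among the RefSeq symbols, which repeat the locus tag for each of the 5040 genes. Carboxypeptidase Y, the autophagy genes and the inhibitors of proteinases A and B are therefore not analysed here.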

How the data were processed

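A single table deposited by the authors gives unnormalized read counts per gene for the 6 libraries. Per the submitters' processing notes, the tools were Trimmomatic, HISAT2 and featureCounts. How they were set, including for strand, is not stated in the sources used here. All 5040 locus tags and positions matched RefSeq assembly ASM2700v1, and all 5040 deposited lengths are multiples of 3, hence coding lengths. The labels mention no molecular identifiers, so the Clopper-Pearson and Poisson intervals take every read as a separate fragment. They cover counting error only, and may be too narrow if some reads were copies of the same fragment.

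Counts were tested with edgeR 4.0.16 (R 4.3.3): filterByExpr (minimum count 10), TMM scaling, quasi-likelihood F-test, two-sided, Benjamini-Hochberg over 3330 genes, threshold 0.05. SE is the absolute log2 fold change over the root of F. The prior degrees of freedom were 1010, so the spread assigned to a gene came almost wholly from the trend over all genes. Alternatives used DESeq2 1.42.0, limma 3.58.1, other scalings and filters, thinning, a replicate block and each library left out. The test was also run on counts simulated from its own model and fitted trend, which cannot show that the model holds for these data. Likeness used log2 CPM with a prior count of 2 and named the nearest gene for each proteinase. Within each group, every pair of libraries differed beyond sampling noise, so none was treated as a duplicate (chi-square per degree of freedom 1.73 to 2.48). The members, lists and tests were chosen with earlier results of these data known.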

Additional observations from a re-analysis of the deposited data

How the results depend on the processing

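PEP4 kept its direction and did not pass under any of the 16 alternatives. PRB1 did not pass under any of 14, though DESeq2 gave it no adjusted p and so could not call it. A minimum count of 50, and thinning to the smallest library, removed PRB1 from the test. With a library left out, the PEP4 log2 fold change ran from -0.219 to -0.0846, and that of PRB1 from -0.0918 to 0.522. PRB1 turned negative without replicate 3 without nitrogen (-0.0918) and without replicate 1 with nitrogen (-0.0587). The difference in the log2 ratio of PRB1 to PEP4 ran from -0.0446 to 0.873, and that in the PRB1 share of counts from -0.000335 to 0.00204 percentage points; both turned negative only without replicate 3 without nitrogen. The PEP4 share difference ran from -0.00901 to -0.00324. The causes were not tested.

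All genes called numbered 211 as reported, 117 with DESeq2, 119 after thinning, and 129 to 183 with a library left out. The count fell by over 1.5 times without replicate 1 (132) or replicate 2 (129) without nitrogen, or without replicate 2 with nitrogen (133). With the replicate block, 168 genes passed, PEP4 was at -0.176 (edgeR adjusted p = 0.702) and PRB1 at 0.274 (edgeR adjusted p = 0.875); the block changed no call on these genes. Paired over replicate numbers, the exact permutation p was 0.5 for the ratio, 0.25 for the PEP4 share and 0.75 for the PRB1 share, where 0.25 is the smallest possible. Deviations of same-numbered libraries correlated at -0.067, -0.0321 and -0.0579, and each library was closest to one of another number, so the replicate numbers give no evidence of pairing. PRB1 rested on only 7 to 14 counts per library, which limits what its tests can show.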
